A study of Homo sapiens with 2 samples.

Results

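Death receptor signaling was examined in the Hodgkin lymphoma (HL) cell line L-428 after knock-down of PRAME. The genes were the TRAIL ligand (TNFSF10), the death receptors FAS, TNFRSF10A and TNFRSF10B, the adaptors FADD and TRADD, the kinase RIPK1, the caspases CASP8 and CASP10 and the inhibitor CFLAR. Every probe set with exactly 1 of these 10 gene symbols in the platform annotation was used. This gave 40 probe sets for 9 genes, out of 41091 probe sets for 19775 genes, and no probe set carried one of these symbols together with a second gene. No probe set of the annotation used names RIPK1, so its expression was not analyzed here.
RNA of L-428 cells stably transfected with pcDNA6.2-GW/EmGFP-miR-PRAME, a vector for an artificial microRNA against PRAME, was compared with RNA of L-428 cells carrying pcDNA6.2-GW/EmGFP-miR-neg, the vector used as control. Both vectors encode the green fluorescent protein EmGFP, and the methods describe blasticidin selection of the transfectants. The sources used here do not say whether the transfectants were single clones or pools. One HG_U133PLUS2.0 array was hybridized for each condition, so there was no replicate and no test was performed. The precision is limited by this number of arrays.

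In the extrinsic pathway of apoptosis a ligand such as TRAIL or Fas ligand binds its receptor on the cell surface. The receptor recruits the adaptor FADD through death domains, and FADD recruits procaspase-8 and procaspase-10 through death effector domains. Within this death-inducing signaling complex the caspases activate each other, unless CFLAR (c-FLIP), a relative of caspase-8 without protease activity of its own, takes their place. HL cells are known to carry Fas on their surface and to express c-FLIP, which has been linked to their resistance against Fas-mediated death.

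Signals are MAS5 intensities in arbitrary linear units, and a signal can be compared between both arrays for the same probe set but not between probe sets. Probe sets whose mean log2 signal reached the median over all of them (a signal of 97.7) were kept. The log2 ratio is that of PRAME knock-down cells over control cells, from which the median over the kept probe sets was subtracted. Each gene is represented by 1 kept probe set, the one with the strongest mean signal, and differences were read against fixed thresholds of 1.5-fold and 2-fold. Folds are given after this centering. Between probe sets of the same gene the log2 ratio had a pooled SD of 0.33 (5840 genes with several kept probe sets), which is no spread between cultures.
The targeted gene PRAME had a signal of 1251 in the knock-down cells and 2115 in the control cells (log2 ratio -0.80). With 2% of values trimmed at either end, the mean signal was 500.1 in each condition, which the MAS5 scaling fixes in advance. The median signal was 109.9 in the knock-down cells and 91.9 in the control cells. For GAPDH, a control of RNA integrity, the 3' signal over the 5' signal was 1.04 in the knock-down cells and 0.948 in the control cells. All 6 markers of Hodgkin and Reed-Sternberg cells were measured, with summed signals of 39371 in the knock-down cells and 38501 in the control cells. No marker of T and NK cells (3 annotated) or of monocytes and macrophages (2 annotated) reached the filter. Of the B cell markers 2 of 3 annotated genes did, and the summed signal over all 9 B cell probe sets was 966 in the knock-down cells and 581 in the control cells. The part of this difference in the results below was not tested. In the series text L-540 cells and another array type are named, whereas the sample labels and the methods name L-428, and the number of probe sets fits HG_U133PLUS2.0.

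Transcripts of the death-inducing complex differed little between both conditions. Only RNA was measured on these arrays, and neither protein nor assembly of the complex was. Of the 9 measured genes only FADD passed 1.5-fold, and it was lower in the knock-down cells. The background over all 11794 measured genes was 5.42% past 1.5-fold on the lower side and 7.54% on the higher side, and 87.0% lay within 1.5-fold. A share of 1 in 9 genes is near this background. No member gene passed 2-fold, whereas 0.729% of all genes did on the lower and 1.73% on the higher side. The median log2 ratio of the 9 genes was -0.08, that of all genes -0.007. The log2 ratio was below 0 for 5 genes (FADD, CASP10, FAS, TNFSF10 and CFLAR) and above 0 or at 0.00 for 4 (CASP8, TRADD, TNFRSF10A and TNFRSF10B), and it was below 0 for 51.0% of all genes. In bulk RNA of this kind, fewer cells with a transcript and less transcript per cell cannot be told apart.
At the level of probe sets, 35 of the 40 were kept. Of these, 17 had a log2 ratio below 0 (52.0% of all kept probe sets with 1 gene) and 18 above 0, and 32 lay within 1.5-fold (background 86.1%). The 3 others were 1 probe set for FADD, which was lower, and 1 each for CASP8 and CASP10, which were higher. That of CASP10, 210708_x_at, was below 1.5-fold after quantile normalization (log2 ratio 0.55), after loess (0.53) and with an offset of 64 (0.45). The corresponding background was 6.54% lower and 7.38% higher. None was 2-fold lower (background 0.983%).

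**Figure D1:**
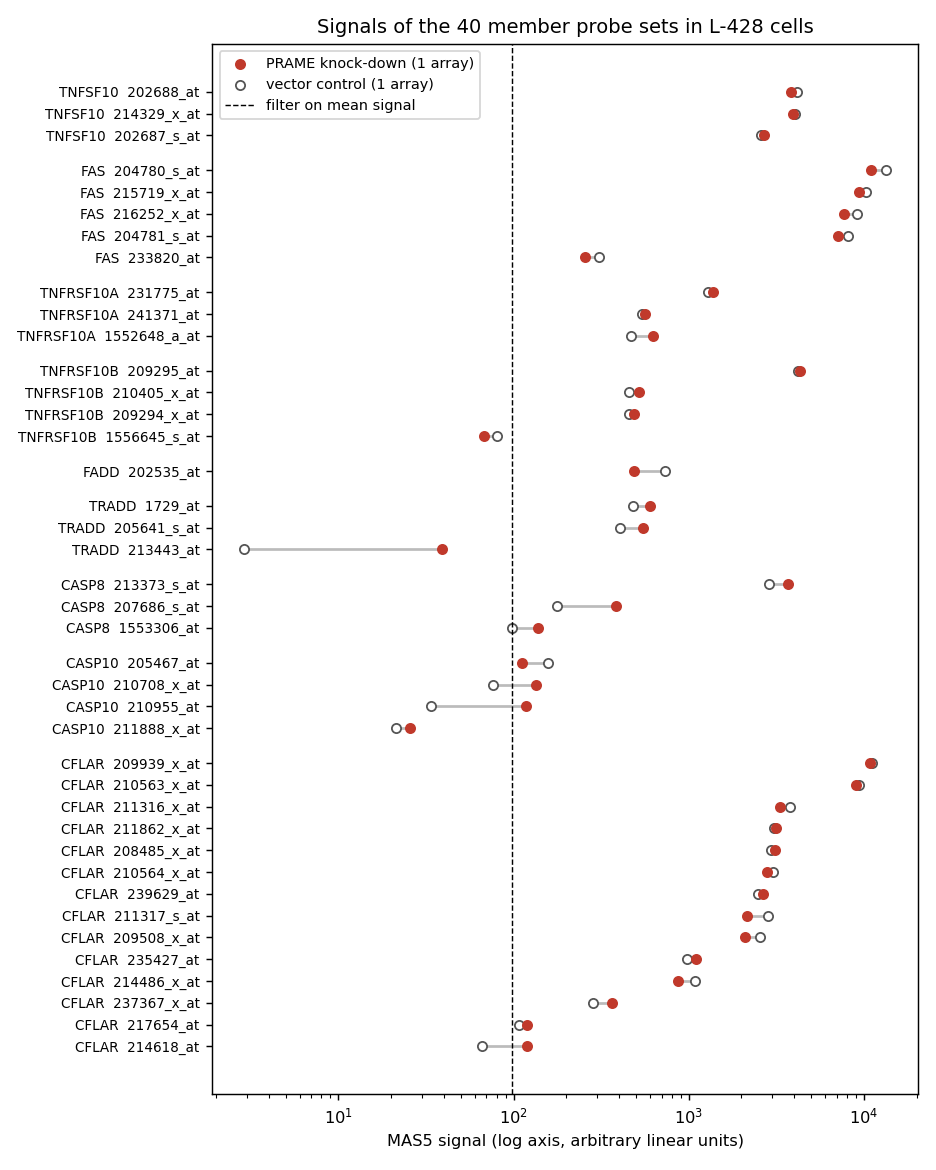
MAS5 signal (log axis) of the 40 probe sets in PRAME knock-down cells (red points) and control cells (open points), 1 array per condition, with a dashed line at the filter of 97.7. Most pairs of points lie close together, and the widest gap, for the TRADD probe set 213443_at (38.8 in knock-down cells, 2.91 in control cells), lies below the filter.

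Sequences upstream of the gene start were taken for the adaptor with the lowest ratio, the caspase that was higher in all probe sets, its inhibitor and the ligand. They are RefSeq sequences of GRCh38.p14 and comprise the 250 bases before an annotated start, 5′ to 3′. They are shown because NF-kB, STAT factors and interferon response factors are known regulators of death receptor genes in lymphoid cells, and because retinoic acid receptors, which PRAME represses, bind AGGTCA. In them, capitals mark matches on either strand to AGGTCA, the NF-kB site (kB site), the STAT motif TTCNNNGAA and the interferon response motif (GAAA, any 2 bases, GAAA).
TNFSF10, chr3:172523431-172523680, minus strand: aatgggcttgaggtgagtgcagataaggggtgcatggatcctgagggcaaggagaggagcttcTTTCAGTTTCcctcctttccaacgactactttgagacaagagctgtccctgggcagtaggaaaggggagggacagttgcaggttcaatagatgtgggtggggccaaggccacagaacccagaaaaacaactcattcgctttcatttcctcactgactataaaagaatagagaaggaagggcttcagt
FADD, chr11:70203046-70203295, plus strand: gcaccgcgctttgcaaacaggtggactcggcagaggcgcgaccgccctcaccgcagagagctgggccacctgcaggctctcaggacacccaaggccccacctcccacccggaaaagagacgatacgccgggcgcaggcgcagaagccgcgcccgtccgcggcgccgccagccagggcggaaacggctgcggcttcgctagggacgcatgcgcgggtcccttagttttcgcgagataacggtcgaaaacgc
CASP8, chr2:201233213-201233462, plus strand: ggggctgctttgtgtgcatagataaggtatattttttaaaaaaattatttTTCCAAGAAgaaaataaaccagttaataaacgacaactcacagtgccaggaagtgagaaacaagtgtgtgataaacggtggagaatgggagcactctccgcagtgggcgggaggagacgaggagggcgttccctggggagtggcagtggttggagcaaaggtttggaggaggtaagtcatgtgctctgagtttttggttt
CFLAR, chr2:201118466-201118715, plus strand: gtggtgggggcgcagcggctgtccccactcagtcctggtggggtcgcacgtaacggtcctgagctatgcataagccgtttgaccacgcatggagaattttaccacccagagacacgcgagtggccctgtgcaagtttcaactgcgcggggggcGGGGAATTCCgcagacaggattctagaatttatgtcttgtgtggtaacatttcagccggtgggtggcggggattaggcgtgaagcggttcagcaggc
The TNFSF10 sequence held 1 match to the interferon response motif, which starts 187 bases before the gene start, and the CASP8 sequence 1 match to TTCNNNGAA at 200 bases. The CFLAR sequence held 1 kB site at 97 bases. Of the sequences not shown, 1 of 3 for FAS held a kB site at 157 bases, and 2 overlapping ones of 3 for RIPK1 held the interferon response motif. FADD held no match and was rich in CG dinucleotides, with 32 against a median of 11 over all sequences. Among all 35116 sequences of this length, 12.1% held AGGTCA, 9.96% a kB site, 6.57% TTCNNNGAA and 3.02% the interferon response motif. Sequences were found for 6 of the 10 genes, 15 in total, and none of the 15 held AGGTCA. For CASP8 and CFLAR, which have several annotated starts, the first along the chromosome is shown, and the others held no match. Matches are letters only, and no binding was measured.

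The transcript of the ligand TRAIL was nearly equal in both conditions. TNFSF10, which encodes it, had signals of 3826, 3919 and 2680.4 in the knock-down cells in its probe sets 202688_at, 214329_x_at and 202687_s_at, against 4139, 4039 and 2591 in the control cells. The log2 ratios of this gene, whose upstream sequence holds the interferon response motif, were -0.16, -0.09 and 0.00. No probe set differed by more than 1.12-fold, and the range of 0.16 between the 3 probe sets was smaller than that of most genes. Of 1556 other genes with 3 kept probe sets, not matched in signal, 10.8% had a smaller range. Fas ligand (FASLG) was below the filter in both of its probe sets, with signals of 45.0 and 46.8 in the knock-down cells and 31.9 and 23.2 in the control cells.

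The receptor FAS was lower in the knock-down cells in all 5 probe sets, by 1.13-fold to 1.26-fold. FAS, also called CD95, is the receptor of Fas ligand. In 204780_s_at, which had the strongest signal, it was measured at 11016 in the knock-down cells and 13428 in the control cells (log2 ratio -0.33). For 216252_x_at the signals were 7679.6 in the knock-down cells and 9118 in the control cells (log2 ratio -0.29). The ratios thus lay on one side, although each was below 1.5-fold. The remaining log2 ratios were -0.30 for 233820_at (257 in the knock-down and 308 in the control cells), -0.23 for 204781_s_at (7106 and 8099.7) and -0.18 for 215719_x_at (9384 and 10313).
The agreement between FAS probe sets was close. Their log2 ratios spanned 0.15, and only 1.0% of genes with 5 kept probe sets spanned less (294 others, not matched in signal). All 5 ratios below 0 were found in 8.84% of these genes. Among the 1000 probe sets nearest in mean signal, 4.9% had a lower log2 ratio than 204780_s_at and 20.3% a lower one than 233820_at. The SD of these neighbours was 0.21 at the strong signal of 204780_s_at and 0.42 at the weaker one of 233820_at. Probe sets of 1 gene are read from the same RNA and are not replicates of a condition.

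The TRAIL death receptors were, unlike FAS, not lower in the knock-down cells in any kept probe set. TNFRSF10A, which encodes TRAIL receptor 1, had signals of 1375, 566 and 625 in the knock-down cells in 231775_at, 241371_at and 1552648_a_at, against 1292, 538 and 467 in the control cells. The log2 ratios were 0.04, 0.03 and 0.38. TNFRSF10B, which encodes TRAIL receptor 2, had signals of 4329, 517 and 489.6 in the knock-down cells in 209295_at, 210405_x_at and 209294_x_at, against 4188, 454 and 456 in the control cells. Its log2 ratios were 0.00, 0.14 and 0.06. All 6 kept probe sets of both receptors were thus at or above 0 and none reached 1.5-fold. All 3 ratios above 0 were found in 18.8% of other genes with 3 kept probe sets (1556, not matched in signal). Within 1.5-fold lay 86.1% of all kept probe sets with 1 gene. Without a filter, where the centering subtracted 0.14 instead of 0.045, both receptors were slightly below 0 (log2 ratios -0.05 and -0.09). The fourth TNFRSF10B probe set, 1556645_s_at, was below the filter with signals of 68.0 in the knock-down and 80.5 in the control cells.
The log2 ratio of TNFRSF10B was 0.33 above that of FAS, and that of TNFRSF10A was 0.37 above it. Such a difference within the arrays does not depend on the centering, and settings changing only the centering or the filter could not move it. Over all 9 settings it ranged from 0.31 to 0.46 for TNFRSF10B and from 0.34 to 0.51 for TNFRSF10A. The log2 ratios of all genes had an SD of 0.41, and how often genes lie this far apart was not counted. The decoy receptors, which bind TRAIL without passing on a death signal, did not reach the filter. All 4 probe sets of TNFRSF10C, both of TNFRSF10D and both of TNFRSF11B (osteoprotegerin) had a mean signal below the filter. Their signals ranged up to 87.2 in the knock-down cells and 38.6 in the control cells, both for TNFRSF10C 206222_at.

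**Figure D2:**
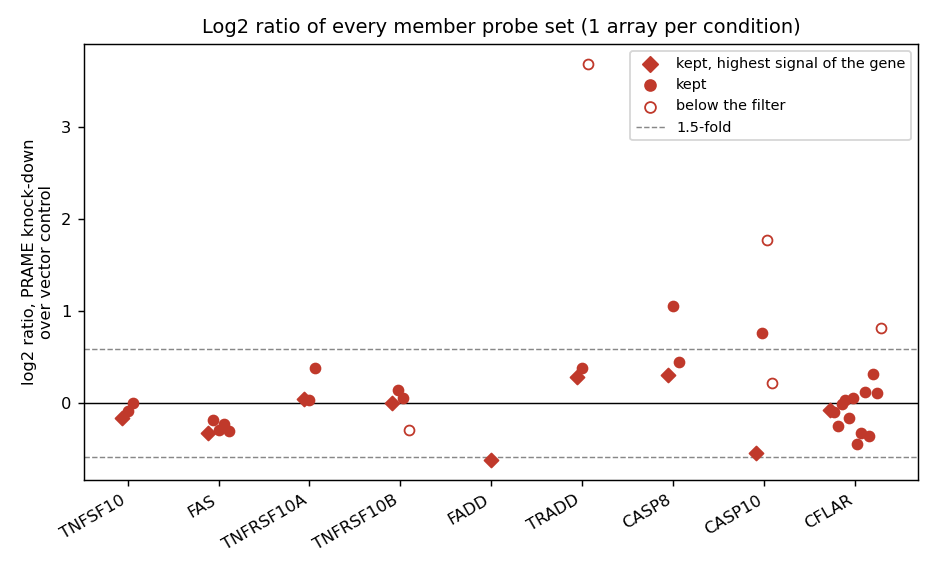
Log2 ratio (vertical axis, knock-down cells over control cells) for each probe set of the 9 genes, 1 array per condition. Diamonds are the probe sets that stand for their gene, filled points the other kept ones, open points those below the filter, and dashed lines mark 1.5-fold. All 5 FAS points lie between -0.33 and -0.18, FADD lies at -0.62, and the 3 CASP8 points lie between 0.31 and 1.06.

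The adaptors FADD and TRADD lay on opposite sides of 0. FADD, which links death receptors to the initiator caspases, was measured by 1 probe set, 202535_at. Its signal was 490.0 in the knock-down cells and 729 in the control cells, a log2 ratio of -0.62 or 1.53-fold lower. This was the lowest ratio of the 9 genes, for the gene whose upstream sequence held the most CG dinucleotides of those shown. A link between this ratio and the CG count was not tested. Of the 1000 probe sets nearest in mean signal, 6.4% had a lower log2 ratio, and all 1000 together had a median of -0.03 and an SD of 0.39. FADD thus stood near the threshold, and its log2 ratio was -0.58 after quantile normalization, -0.57 without centering and -0.56 with an offset of 64, all just below 1.5-fold.
TRADD, the adaptor of TNF receptor 1, was higher than in the control cells in its kept probe sets without reaching 1.5-fold. Its signals were 598 in the knock-down cells and 478 in the control cells for 1729_at (log2 ratio 0.28), and 545 and 405 for 205641_s_at (log2 ratio 0.38). Both ratios above 0 were found in 26.8% of other genes with 2 kept probe sets (3104, not matched in signal). Of the 1000 probe sets nearest in signal, 81.8% had a lower log2 ratio than 1729_at and 84.8% a lower one than 205641_s_at. The third probe set, 213443_at, had the highest log2 ratio of all member probe sets (3.69), with a signal of 38.8 in the knock-down cells and 2.91 in the control cells. Both values lie far below the filter, where the 1000 probe sets nearest in signal had an SD of 1.55, and with an offset of 64 the log2 ratio was 0.58. The log2 ratio of TRADD was 0.90 above that of FADD, with a range from 0.81 to 0.95 over the 9 settings. Settings that change only the centering or the filter could not move this difference.

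The initiator caspase CASP8 was higher in the knock-down cells in all 3 probe sets, by amounts that differed between them. Caspase-8 is the protease that starts the cascade at the receptor. In 213373_s_at, which had the strongest signal, it was measured at 3698 in the knock-down cells and 2883 in the control cells (1.24-fold, log2 ratio 0.31). Of the 1000 probe sets nearest in signal, 92.1% had a lower log2 ratio. In 207686_s_at the signal was 383 in the knock-down cells and 177 in the control cells, which is 2.09-fold higher (log2 ratio 1.06), and 99.0% of its 1000 neighbours in signal had a lower ratio. It was the only member probe set past 2-fold among those kept (1.52% of all kept probe sets with 1 gene were at least 2-fold higher), and with an offset of 64 it was below 2-fold (log2 ratio 0.85). The third, 1553306_at, had a low signal of 138 in the knock-down cells and 98.3 in the control cells (log2 ratio 0.45), where 67.6% of the neighbours in signal had a lower ratio.
The CASP8 ratio therefore depended on the probe set, with a range of 0.75. This exceeded the range of 79.1% of genes with the same number of kept probe sets (1556 others, not matched in signal). All 3 ratios above 0 were found in 18.8% of these genes. The files do not say which CASP8 transcripts each probe set detects. With quantile normalization or a loess trend subtracted, the ratio of 213373_s_at was 0.39 on the log2 scale in each case.
CASP10, a close relative of CASP8, gave no common direction. In 205467_at the signal was 112 in the knock-down cells and 158 in the control cells (log2 ratio -0.54), whereas 210708_x_at had 134 in the knock-down cells and 76.7 in the control cells (log2 ratio 0.76). The difference of 1.31 between both was larger than for 98.4% of genes with 2 kept probe sets (3104 others, not matched in signal). Both signals were low, and the 1000 probe sets nearest in signal had an SD of 0.51 for 205467_at and 0.57 for 210708_x_at. The remaining probe sets, 210955_at with signals of 118 in the knock-down and 33.6 in the control cells and 211888_x_at with 25.6 and 21.4, were below the filter. The median over the kept probe sets was 0.11, so the sign for CASP10 was set by the choice of the probe set.

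**Figure D3:**
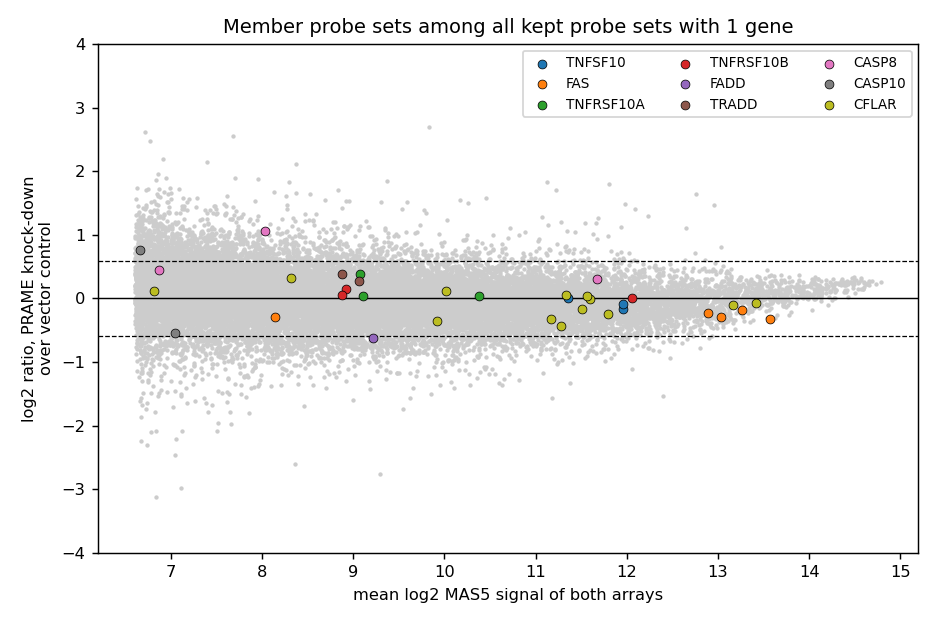
Log2 ratio (vertical axis, knock-down cells over control cells) and mean log2 signal over the arrays (horizontal axis), 1 array per condition. Grey points are all kept probe sets with 1 gene, colored points the 35 kept member probe sets, and dashed lines mark 1.5-fold. Beyond these lines lie 207686_s_at of CASP8 (1.06), 210708_x_at of CASP10 (0.76) and FADD (-0.62), and the grey cloud widens towards low signals.

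The inhibitor CFLAR was measured by 14 probe sets, of which 13 were kept, and none of these differed by 1.5-fold. CFLAR encodes long and short forms of c-FLIP, which compete with procaspase-8 for FADD. In 209939_x_at, which had the strongest signal, it was measured at 10853 in the knock-down cells and 11088 in the control cells (log2 ratio -0.08). For 210563_x_at the signals were 9067 in the knock-down cells and 9432 in the control cells (log2 ratio -0.10). Of the 13 probe sets, 8 had a log2 ratio below 0 and 5 above 0, with a median of -0.08.
The ends of this distribution lay on either side of 0. The lowest ratio was found for 211317_s_at, with a signal of 2162 in the knock-down cells and 2844 in the control cells (log2 ratio -0.44). The next were 214486_x_at with 867 in the knock-down and 1080.0 in the control cells (-0.36) and 209508_x_at with 2092 and 2550.2 (-0.33). The highest kept ratio was that of 237367_x_at, with 364 in the knock-down cells and 283 in the control cells (0.32). The probe set below the filter, 214618_at, had signals of 119.7 in the knock-down and 65.9 in the control cells (log2 ratio 0.82).
The sign of the median differed between the _x_at and the plain _at probe sets, but both medians were near 0. Between probe sets of the same gene the pooled SD was 0.33. The ending _x_at marks probe sets with probes that can also bind other transcripts. The 9 kept CFLAR probe sets of this kind had a median log2 ratio of -0.10, with 7 below 0 and 2 above it. The highest kept ratio of CFLAR (0.32) was among them. The 3 with the plain ending _at (239629_at, 235427_at and 217654_at) had log2 ratios of 0.05, 0.12 and 0.11. After quantile normalization the last of these was -0.09. Cross-hybridization was not tested.

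CASP8 and CFLAR compete for the same adaptor. At the probe sets that stand for these genes, their log2 ratios lay apart by less than 1.5-fold. At the CASP8 probe set 207686_s_at the log2 ratio was 1.06, more than 1.5-fold above that of CFLAR (-0.08). As represented by 213373_s_at, the log2 ratio of CASP8 was 0.39 above that of CFLAR. Over the 9 settings, none of which takes the value of 207686_s_at for the gene, this difference ranged from 0.38 to 0.52. Settings that change only the centering or the filter could move neither this difference nor those to FADD given next. The log2 ratio of CASP8 was 0.93 above that of FADD, with a range from 0.87 to 1.06. CASP8 had the highest and FADD the lowest log2 ratio of the 9 genes, so no other pair of them lay further apart. The log2 ratio of CFLAR was 0.54 above that of FADD. Without a second array for each condition none of these differences could be set against a spread between cultures. CFLAR, CASP10 and CASP8 are neighbours on chromosome 2, where the median log2 ratio over 795 other genes was 0.01. For FAS on chromosome 10 and FADD on chromosome 11 the corresponding medians were -0.06 (470 genes) and -0.02 (662 genes).

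**Figure D4:**
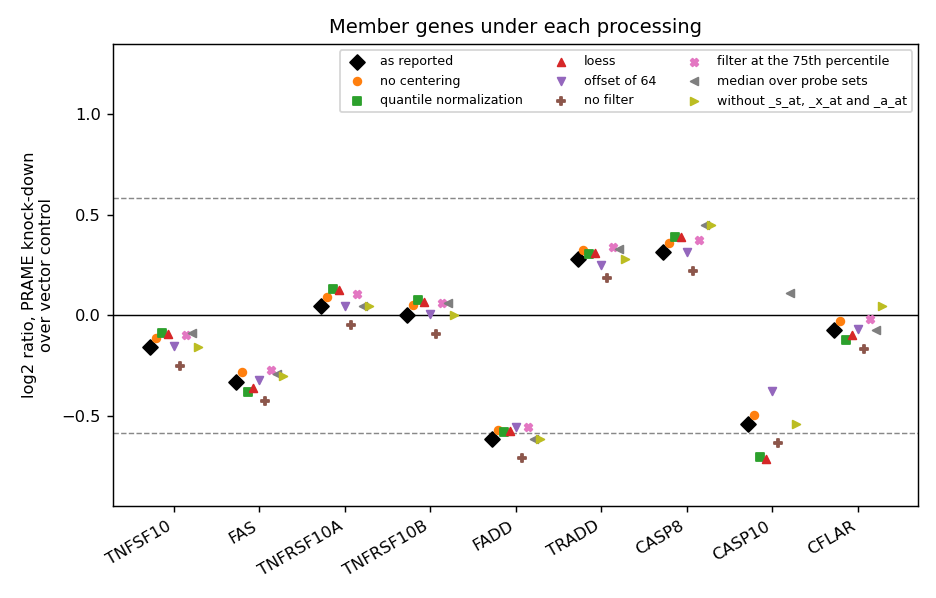
For the 9 genes, the log2 ratio (knock-down cells over control cells) as reported (black diamonds) and under the 8 alternatives of processing (colored symbols), 1 array per condition, dashed lines at 1.5-fold. FADD crosses the lower line in some settings (-0.71 to -0.56), CASP10 ranges from -0.72 to 0.11 and has no value with the filter at the 75th percentile, and CASP8 stays between 0.22 and 0.45.

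Other genes of the extrinsic pathway were set beside the same background. Of 45 listed genes, 40 had a probe set with 1 gene name and 31 were measured, with a median log2 ratio of -0.07. At least 1.5-fold lower were 3 of the 31 (5.42% of all genes), at least 1.5-fold higher was 1 (7.54% of all genes), and nothing particular to the list is read from these counts. The cytokine TNF had a signal of 288 in the knock-down cells and 558 in the control cells (log2 ratio -1.0), in 1 probe set. BAX, which permeabilizes the outer mitochondrial membrane, had signals of 273 in the knock-down cells and 408 in the control cells (log2 ratio -0.62), and its second probe set 208478_s_at had a log2 ratio of -0.48. BAX passed 1.5-fold in 3 of the 8 alternatives (quantile normalization, loess and no filter).
XIAP, an inhibitor of the executioner caspases, had signals of 4340.3 in the knock-down cells and 6742 in the control cells in 228363_at (log2 ratio -0.68), but its 7 probe sets ranged from -0.93 to 0.18 with a median of -0.17. PARP1, a substrate of executioner caspases, had a signal of 5449.8 in the knock-down cells and 3458 in the control cells (log2 ratio 0.61). Grouped by place in the pathway, 0 of 8 measured regulators at the receptor complex and 0 of 8 genes of the TNF receptor complex and necroptosis passed 1.5-fold, with medians of -0.04 and 0.12, where 87.0% of all genes also lay within 1.5-fold. Single kept probe sets in these groups did pass it, 216038_x_at of DAXX (log2 ratio -1.01) and 222142_at of CYLD (-0.71). These genes are represented by 201763_s_at (0.03) and 221903_s_at (-0.55). Of 13 downstream genes, 2 were lower and 1 was higher (median -0.07). Of the other ligands and receptors only TNF and TNFRSF21 (log2 ratio -0.34) of 9 genes were measured.

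**Figure D5:**
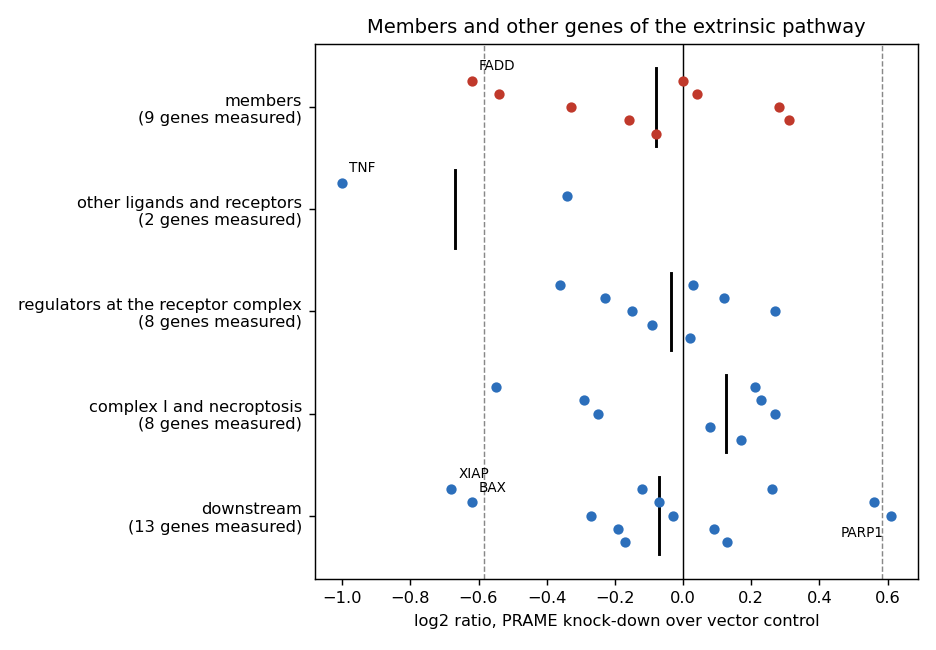
Log2 ratio (horizontal axis, knock-down cells over control cells) for the 9 member genes (red) and 31 other genes of the extrinsic pathway (blue) by place in the pathway, 1 array per condition, with black bars at the medians and dashed lines at 1.5-fold. Genes past these lines are named, and the medians of the members and of the downstream genes lie at -0.08 and -0.07.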

How the data were processed

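RNA levels were measured in PRAME knock-down L-428 cells and in L-428 cells with the control vector, with 1 array each. The authors processed the arrays with MAS5 in Affymetrix Expression Console 1.1 (named in the submitters' processing notes) and deposited signal intensities on a linear scale for 54675 probe sets. MAS5 subtracts a background and scales each array to a common mean.
The 62 control probe sets were left out. Log2 signals were taken with no offset added. The 27307 probe sets at or above the median mean signal were kept, and log2 ratios were centered by subtracting 0.045. In the platform annotation 41097 probe sets have 1 gene symbol, 1801 have several and 11777 have none. Symbols were updated through the RefSeq table of GRCh38.p14 (41043 matched), which also gave chromosome and gene order.
No test was possible with 1 array per condition. Named were all member genes, and of a list of 45 pathway genes those past 1.5-fold and the TRAIL receptors and Fas ligand. TNFRSF21, DAXX and CYLD were named after their values were seen. Members and lists were chosen with earlier results of these data known. The 8 alternatives were no centering, quantile normalization, a loess trend (span 0.4), an offset of 64, omission of the filter, a stricter filter (75th percentile), a gene value taken as median over its probe sets, and leaving out the endings _s_at, _x_at and _a_at. On simulated data of this comparison with a noise SD set by hand, 192 of 198 genes changed by 2-fold passed 1.5-fold, as did 107 of 200 changed by 1.5-fold. In the same runs 245 and 212 unchanged genes also passed 1.5-fold. The simulated noise was the same at every signal. In the data the SD of the log2 ratios was larger and fell from 0.54 at the lowest kept signals to 0.27 at the highest. These counts therefore do not describe detection on these arrays. Calculations were done with pandas 2.3.3, numpy 2.4.6 and statsmodels 0.14.6 under Python 3.11.15, and plots with matplotlib 3.10.9.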

Additional observations from a re-analysis of the deposited data

How the results depend on the processing

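FADD was at least 1.5-fold lower without a filter, with the median over probe sets and without the endings _s_at, _x_at and _a_at. In the 5 other alternatives it was not (log2 ratios -0.58 to -0.56). FADD has 1 probe set, with the plain ending _at. The median over probe sets and the omission of endings could therefore only repeat the reported value. Without a filter, the centering subtracted 0.14 instead of 0.045. The number of member genes at least 1.5-fold lower was 1 as reported, 0 without centering, with an offset of 64 and with the filter at the 75th percentile, and 2 without a filter (FADD and CASP10). After quantile normalization and loess it was again 1, but this was CASP10 (-0.71 and -0.72) instead of FADD. No setting gave a member gene at least 1.5-fold higher. As reported, 7.54% of all genes were at least 1.5-fold higher, and 0 of 9 member genes is near this background. Without a filter, 2331 of 19775 genes were at least 1.5-fold lower and 3480 higher. The CASP10 log2 ratio was 0.11 with the median over probe sets. Of the 71 alternative values of single members, 70 moved by less than 0.33. No centering and both changes of the filter left each gene at the same probe set and only shifted its ratio by a constant. This count is therefore no measure of how stable the values are. CFLAR had a log2 ratio of 0.05 without the endings _s_at, _x_at and _a_at.
Of the pathway list, 3 genes were lower as reported and 1 with the filter at the 75th percentile (XIAP), with the median over probe sets (TNF) and without the endings (XIAP). Without centering and with the offset it was 2, as BAX was lost. Higher were 1 as reported, 2 without centering (BID and PARP1) and 5 without a filter (PTPN13, TNFRSF10C, TNFRSF11B, TNFRSF1A and TNFRSF25), and none of these 5 had reached the filter. Of all genes, 639 were lower as reported, 2331 without a filter and 273 with the filter at the 75th percentile. Higher were 889 as reported, 476 with the offset, 3480 without a filter and 254 with the filter at the 75th percentile. Without a filter 19775 genes were measured and with the stricter filter 7392, against 11794 as reported.
At signals from 97.7 to 136 the log2 ratios of the kept probe sets had a median of 0.21 and an SD of 0.54, against -0.03 and 0.27 at the highest signals, and the 4 kept member probe sets in this lowest range were both of CASP10, 1553306_at of CASP8 and 217654_at of CFLAR. No paired analysis was possible because there is 1 array per condition, and for the same reason no array could be left out.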

Other observations

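The genes around the CFLAR, CASP10 and CASP8 cluster on chromosome 2 did not differ between the PRAME knock-down and the control cells by 1.5-fold. Of the 10 nearest measured neighbours, 5 on each side, 0 passed 1.5-fold in either direction (87.0% of all genes lay within 1.5-fold). Their log2 ratios ranged from -0.23 to 0.16 with a median of -0.10. The log2 ratio of CASP8 (0.31) lay above this range, that of CFLAR (-0.08) within it and that of CASP10 (-0.54) below it. Around TNFRSF10A and TNFRSF10B on chromosome 8, 1 of the 10 nearest measured neighbours was at least 1.5-fold lower in the knock-down cells (SORBS3, log2 ratio -0.80, named after its value was seen) and 0 were higher, with a range up to 0.53 and a median of 0.09. With 1 array per condition this is a description of these arrays.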
